A study of Mus musculus with 2 samples.

Results

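The proteasome genes of mouse embryonic fibroblasts were compared between day 3 and day 0 of adipogenesis, in which drugs drive fibroblasts towards fat cells. On both days the cells were labelled Xbp1 knockout, Xbp1 being a transcription factor gene of the cell's response to unfolded proteins, and no cells with the gene intact entered the comparison. Day 3 was 1 culture sample after 72 h in 10 µg/ml insulin, 5 µM troglitazone (a PPARγ agonist), 5 µM DXM and 0.25 mM IBMX (a phosphodiesterase inhibitor), and day 0 was 1 culture sample taken at confluence, when that treatment began. The labels do not say how the knockout cells were derived. Messenger RNA was read on 1 single-colour array per day, so there are no replicates and no p-values.

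Members were the probes whose platform gene symbol begins with Psma to Psmg followed by a number. That rule took 53 of 29922 gene probes, which represent 45 of 16637 named genes. One of the 45, Psmc3ip, matches by its letters alone, since its product acts in meiotic recombination, so 44 proteasome genes were described. Another gene, Psme3ip1, matches only under its current name and is not a subunit either. No probe carried the symbols Psma5, Psmb3, Psmb11, Psmg4 or Psme2b.

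The proteasome is the protease complex that degrades ubiquitin-tagged proteins. Its core particle is a barrel of 4 stacked rings, in which alpha subunits (Psma genes) form the outer rings and beta subunits (Psmb genes) the inner rings, with the proteolytic sites inside. A regulatory cap of ATPases (Psmc genes) and non-ATPases (most Psmd genes) recognises, unfolds and feeds in substrates. In cells exposed to interferon, immune beta subunits replace the catalytic ones, and the PA28 activator can bind in place of the cap. Dedicated chaperones, encoded by Psmg genes and by Psmd5, Psmd9 and Psmd10, assist assembly and are absent from the finished complex.

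All 10 fibroblast markers examined were above the detection threshold on both days, while 0 of 6 adipocyte markers were on either day. The summed signal of those 6 was 301.5 on day 3 and 81.5 on day 0, with Adipoq at 120.5 on day 3 and 12 on day 0, and its part in the results below was not tested. Of 10 leukocyte and macrophage markers on the array, 3 were detected on day 3 and 3 on day 0, with a summed signal of 1015 on day 3 and 985 on day 0 and Ptprc at the floor on both days. Of 4 endothelial markers, 1 was detected on day 3 and 2 on day 0, and of 4 epithelial markers 0 were detected on day 3 and 1 on day 0. The Xbp1 probe read 13561 on day 3 and 20936 on day 0, and it cannot check the knockout label, since whether it lies in the deleted stretch is unknown. Before normalization the day 3 array was brighter, with a median raw intensity over gene probes of 166, against 78 on the day 0 array. The arrays were quantile normalized, which gives both days the same distribution of signals. Detection required a normalized signal above 122, the median over gene probes, on at least 1 day. All values below are normalized signals on a linear scale or log2 differences of them, day 3 minus day 0. Signals of different genes come from different probes and do not rank the genes' transcript levels.

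Start-site sequences are shown first for the members that stood farthest apart among the cap genes, Psmd11 and Psmd4 on the high side and Psmd2 on the low side, and for the immune genes Psmb9 and Psmb8. They are the 250 bases before each gene's start in RefSeq, build GRCm38.p6, 5′ to 3′ on the gene's strand. Capitals mark matches, on either strand, to 5 motifs: TGACNNNGC, the core of the antioxidant response element through which NRF1 and NRF2 act; the CCAAT box; the GC box GGGCGG; the STAT motif TTCNNNGAA; and the core of the interferon-stimulated response element.
Psmd11 (chr11:80428365-80428614, plus strand): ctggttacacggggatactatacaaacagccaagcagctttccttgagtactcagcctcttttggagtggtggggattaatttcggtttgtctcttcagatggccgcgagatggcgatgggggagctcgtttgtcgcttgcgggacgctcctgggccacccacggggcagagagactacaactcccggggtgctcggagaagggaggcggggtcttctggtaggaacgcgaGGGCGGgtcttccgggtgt
Psmd4 (chr3:95042615-95042864, minus strand): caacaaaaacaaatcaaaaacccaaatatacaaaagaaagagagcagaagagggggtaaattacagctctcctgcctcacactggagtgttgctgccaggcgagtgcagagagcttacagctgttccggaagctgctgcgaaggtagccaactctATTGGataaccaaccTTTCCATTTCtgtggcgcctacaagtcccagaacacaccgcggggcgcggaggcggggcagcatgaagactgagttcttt
Psmd2 (chr16:20651402-20651651, plus strand): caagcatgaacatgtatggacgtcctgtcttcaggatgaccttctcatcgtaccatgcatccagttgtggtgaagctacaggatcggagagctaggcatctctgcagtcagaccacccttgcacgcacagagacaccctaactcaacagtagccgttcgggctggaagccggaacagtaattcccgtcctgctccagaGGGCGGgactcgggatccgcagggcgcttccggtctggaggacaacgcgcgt
Psmb9 (chr17:34187331-34187580, minus strand): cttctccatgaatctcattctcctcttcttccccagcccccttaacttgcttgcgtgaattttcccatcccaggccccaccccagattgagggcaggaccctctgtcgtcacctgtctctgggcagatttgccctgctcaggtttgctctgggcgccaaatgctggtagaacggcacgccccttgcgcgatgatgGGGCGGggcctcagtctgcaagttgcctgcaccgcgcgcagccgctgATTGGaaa
Psmb8 (chr17:34197945-34198194, plus strand): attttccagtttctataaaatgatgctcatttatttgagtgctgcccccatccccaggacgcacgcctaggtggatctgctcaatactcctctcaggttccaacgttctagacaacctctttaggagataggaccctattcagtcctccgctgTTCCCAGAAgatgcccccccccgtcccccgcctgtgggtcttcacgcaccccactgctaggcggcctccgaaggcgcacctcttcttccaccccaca
Psmd11 and Psmd2, which differed in opposite directions, each held a GC box and no other match. Psmd4 held a CCAAT box and a match to the interferon-stimulated response element core, Psmb9 a GC box and a CCAAT box, and Psmb8 a STAT motif.

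Over the 36 members with a start-site sequence, the antioxidant response element core stood in 5 (13.9%), against 10.2% of all 32851 such windows of the mouse genome. Its 5 holders were Psmb5, Psmb6, Psmc6, Psmd12 and Psmd9, with a median log2 difference of 0.13, against 0.06 for the 28 detected members without it. The GC box stood in 21 of 36 (58.3%) against 32.7% of all windows, the CCAAT box in 12 (33.3%) against 33.8%, the STAT motif in 2 (5.56%) against 7.02% and the interferon-stimulated core in 2 (5.56%) against 2.98%. A match is only a run of letters, and these shares were not tested.

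After quantile normalization most proteasome genes differed little between the days. Of all named genes, 64.05% were detected, and 56.7% on both days. Of the 44 proteasome genes, 40 (90.9%) were detected, all 40 of them on both days. Their median log2 difference was 0.08, against 0.03 over all 10656 detected genes. On day 3, 22 of the 40 (55%) were higher and 18 lower, where 51.5% of all detected genes were higher. At 1.5-fold, 4 genes were higher, namely Psmd11, Psmd4, Psmd6 and Psmb9, where 24.1% of all detected genes were, and 3 were lower, namely Psmd2, Psmg3 and Psme3, where 21.0% were. At 2-fold, 1 was higher (Psmd11), against 12.8% of all detected genes, and 1 was lower (Psmd2), against 10.3%. These counts depended on the scaling. At 1.5-fold, median scaling over all gene probes gave 0 higher and 21 lower, where 1471 and 4750 of all 10655 detected genes were. No normalization gave 14 higher and 1 lower, where 5954 and 696 of all 11043 detected genes were.

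After quantile normalization the middle of the distribution was fuller than among genes at large. Differences under 1.5-fold were seen in 33 of 40 members (82.5%), against 54.9% of all detected genes, with saturated or sub-threshold signals, among them Psmd7 on day 3, taken at their measured value. A mean log2 signal of 10 or more was reached by 37 of the 40 members. Among those, 32 of 37 (86.5%) differed by less than 1.5-fold, against 63.0% of the 5393 detected genes past the same limit. The 2 sets were not matched in brightness. Median signals were 7862 on day 3 and 9088.5 on day 0 for the members, against 3419.75 and 3400.75 for all genes past the limit. These shares belong to quantile normalization, describe 2 arrays and carry no test. Under median scaling over all gene probes, 21 of 40 members were 1.5-fold lower and 0 higher, so the middle held fewer of them. Of all 10655 detected genes in that setting, 4750 were 1.5-fold lower and 1471 higher. Cyclic loess gave 3 members 1.5-fold lower and 4 higher, where 2509 and 2419 of all 10676 detected genes were.

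**Figure D1:**
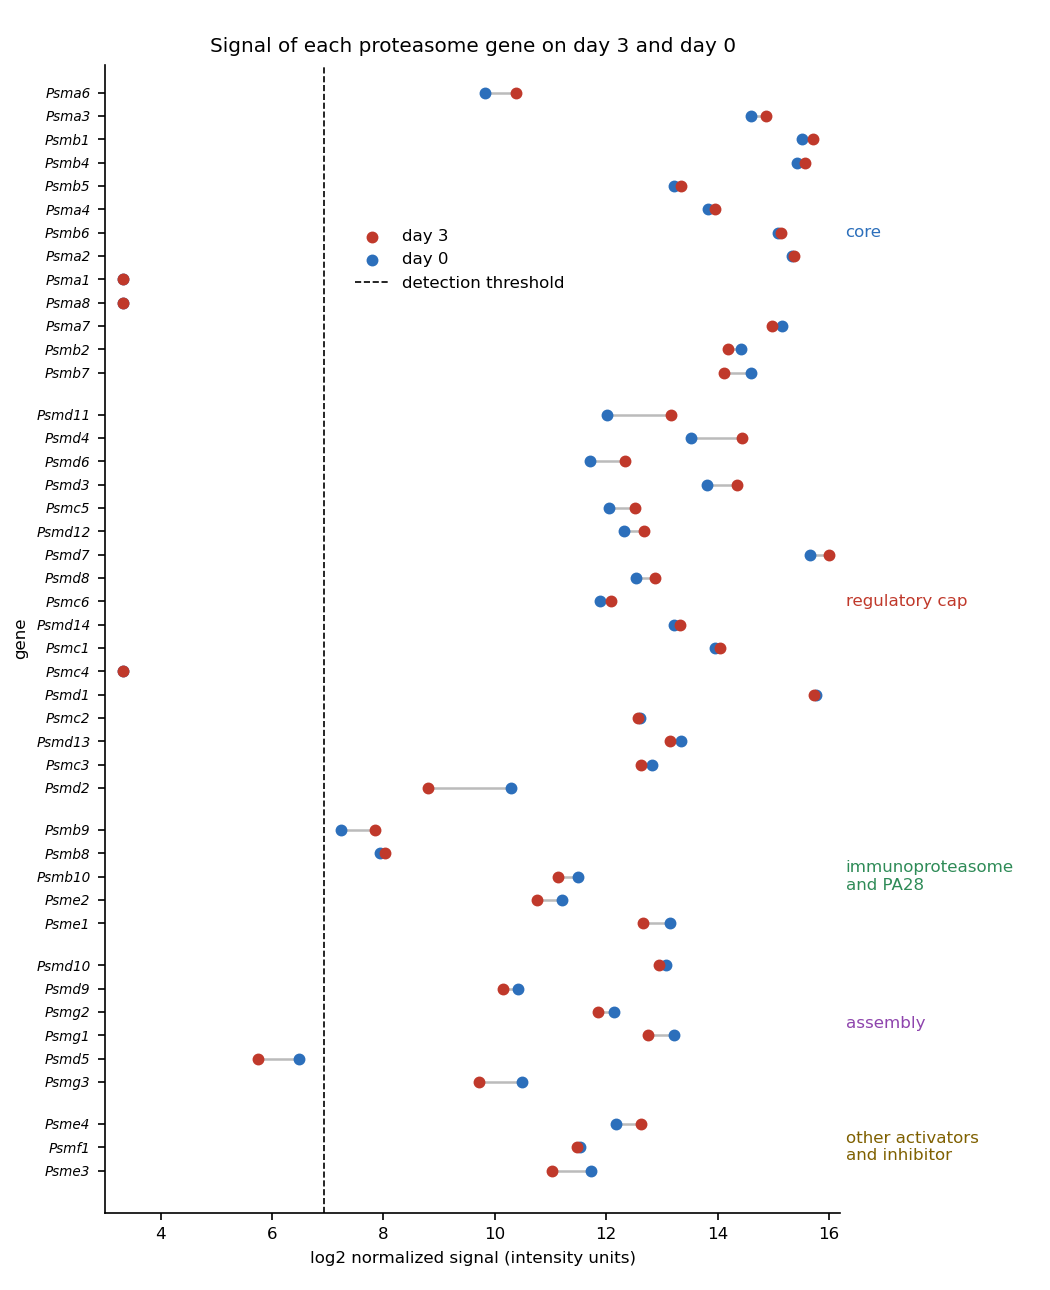
Log2 normalized signal (horizontal axis, intensity units) of each of the 44 proteasome genes (rows, grouped by class) on day 3 (red) and day 0 (blue), 1 array each, with the detection threshold as a dashed line. Psmd11, Psmd4 and Psmd2 have the longest bars among detected genes, and Psma1, Psma8, Psmc4 and Psmd5 lie below the threshold on both days.

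**Figure D2:**
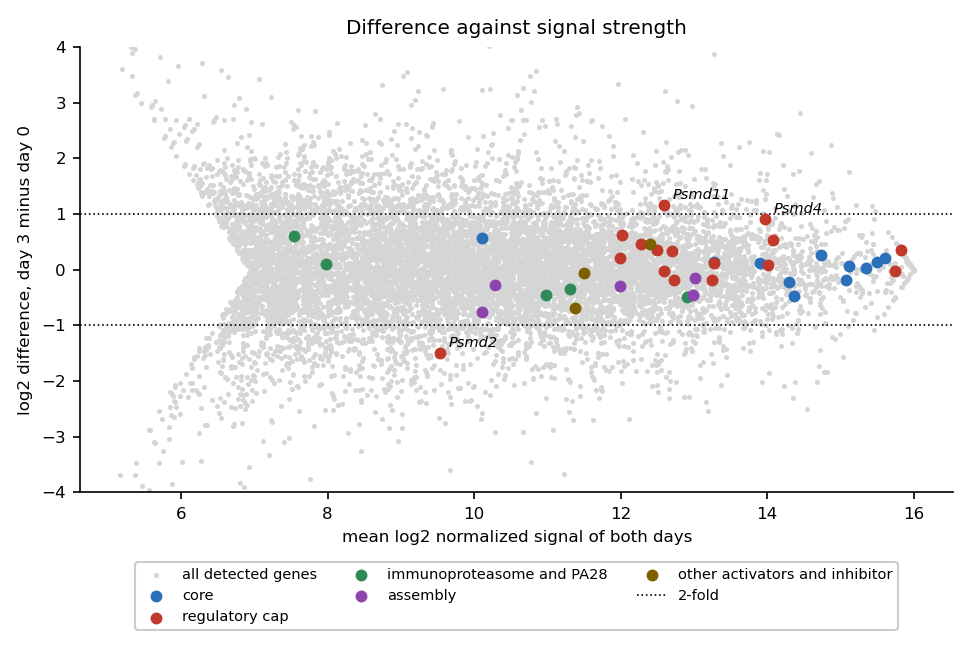
Log2 difference, day 3 minus day 0, against the mean log2 signal of both days, for all detected genes (grey) and the 40 detected proteasome genes (coloured by class), with 2-fold limits dotted. The axis leaves out 9 detected genes with differences beyond 4, and Psmd11 and Psmd2 are the only proteasome genes outside the 2-fold limits.

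A technical error was taken from control features printed as 5 or 6 spots on each array. The repeat-spot SD of a log2 difference, by the median feature, ran between 0.37 for the brightest signals (12 and above on the log2 scale) and 0.42 for those between 8 and 10. A pooled SD, to which noisy features contribute more, ran between 0.50 (signals between 10 and 12) and 1.01 (between 8 and 10). Of the 40 members, 25 differed by less than the SD of the median feature and 34 by less than the pooled SD. The 6 beyond the pooled SD were Psmd11, Psmd4 and Psma6 on the high side and Psmd2, Psmg3 and Psme3 on the low side. Both SDs include differences between spot positions that the arrays share. Taken within the same spot position, the SD of the median feature was smaller, between 0.091 for the brightest signals and 0.27 for the dimmest, and 7 of the 40 members differed by less than it. None of these SDs covers variation between cultures, RNA extractions or hybridizations, so being beyond one does not show a difference between the days. The repeat-spot SD below is the first, larger one of the median feature.

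Genes of the core's alpha and beta rings stayed close to level. The 11 detected ones had a median of 0.12, with 8 higher and 3 lower on day 3 and 0 at 1.5-fold in either direction, but most of these signs depended on the scaling of the arrays described further on. Psma6, an alpha subunit gene, stood highest, with 1342 on day 3 and 907.75 on day 0 (0.56, with a repeat-spot SD of 0.40). Psma3 followed with 29907 on day 3 and 24829 on day 0 (0.27). Psma4 (0.12) and Psma2 (0.04) were nearly level, and Psma7 read 32335 on day 3 and 36688.5 on day 0 (-0.18). The 5 detected alpha genes had a median of 0.12.

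Among the 6 detected beta genes the median was 0.10. The structural subunit genes Psmb1 (0.20), Psmb4 (0.13) and Psmb2 (-0.23) all lay within the repeat-spot SD of 0.37 and beyond the same-position SD of 0.091. The 3 catalytic genes split. Psmb5, which encodes the subunit with chymotrypsin-like activity, read 10392.5 on day 3 and 9492 on day 0 (0.13). Psmb6, for the caspase-like site, read 36306 on day 3 and 34692 on day 0 (0.07). Psmb7, for the trypsin-like site, read 17849 on day 3 and 24907.5 on day 0, a difference of -0.48 that was the lowest of the core and exceeded the repeat-spot SD.

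Psma1, an alpha subunit of every proteasome, read the floor of 10 on both days, from raw intensities of 9 on day 3 and 4 on day 0. Psmc4, an ATPase of the cap, likewise read 10 on both days, with raw intensities of 4 on day 3 and 5 on day 0. Both encode obligate subunits, and their floor readings were not taken as absence of the transcript. Psma8, the alpha subunit of testis, was also at the floor on both days. Psma3 had 2 further probes, which read 10 on day 3 and no more than 14 on day 0.

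The regulatory cap was spread more widely. Of its 16 detected genes, 11 were higher and 5 lower on day 3, with a median of 0.27 that turned to -0.49 under median scaling over all gene probes. The highest value was 1.16 and the lowest -1.49. The SD among the cap genes was 0.59, against 0.28 among the core genes. The cap consists of a base, which sits on the core and holds the ATPases, and a lid, which removes ubiquitin, and the 2 parts differed in their counts.

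Lid genes were higher on day 3 in 7 of 8 cases, with a median of 0.35. Median scaling over all gene probes, which lowered every lid gene, turned that median to -0.32. Psmd11, which encodes the lid subunit RPN6, read 9211 on day 3 and 4133.5 on day 0, a 2.23-fold difference (1.16) that was the largest upward difference of any member here, although Psmb9 stood slightly higher with no normalization and under either median scaling (over detected probes, 1.05 for Psmb9 and 1.02 for Psmd11). It exceeded the repeat-spot SD of 0.37 and its pooled value of 0.90. Psmd6, for the lid subunit RPN7, read 5178.5 on day 3 and 3353 on day 0 (0.63). Psmd3, for the lid subunit RPN3, read 20818.5 on day 3 and 14302 on day 0 (0.54). These 3 encode scaffold subunits of the lid.

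Psmd12 (0.35) and Psmd8 (0.34) encode further scaffold subunits and lay just within the repeat-spot SD. Psmd7 was saturated on day 3, where it read 65468.2, against 51563 on day 0. After quantile normalization it was thus at least 1.27-fold higher, and no upper limit can be given. Other scalings, with the saturated signal at its value, put its difference between -0.51 and 0.58, so its sign depended on the scaling. Psmd14, which encodes the deubiquitinating enzyme of the lid, read 10292.5 on day 3 and 9502.5 on day 0 (0.12). Psmd13 was the only lid gene lower on day 3, with 9101.5 on day 3 and 10356 on day 0 (-0.19).

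Base genes were divided, 4 higher and 4 lower, with a median of 0.03. Psmd4, which encodes the ubiquitin receptor RPN10, read 22121.5 on day 3 and 11760.5 on day 0, a 1.88-fold difference (0.91). Psmd2, which encodes the scaffold subunit RPN1, read 443.5 on day 3 and 1249.5 on day 0, a 2.82-fold difference in the other direction (-1.49). It was the lowest of all members, and only 4.37% of all detected genes had a lower difference. Psmd1, which encodes the other large scaffold subunit, RPN2, read 54746.5 on day 3 and 55625 on day 0 (-0.02). Each of these 3 genes had 1 probe, so no second probe checks the difference between Psmd4 and Psmd2.

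The 5 detected ATPase genes were more even. Psmc5 read 5856 on day 3 and 4244.5 on day 0 (0.46), beyond its repeat-spot SD of 0.37. Psmc6 (0.20), Psmc1 (0.09), Psmc2 (-0.03) and Psmc3 (-0.19) lay within theirs. The ATPases form a ring with 1 copy of each, and their median was 0.09.

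**Figure D3:**
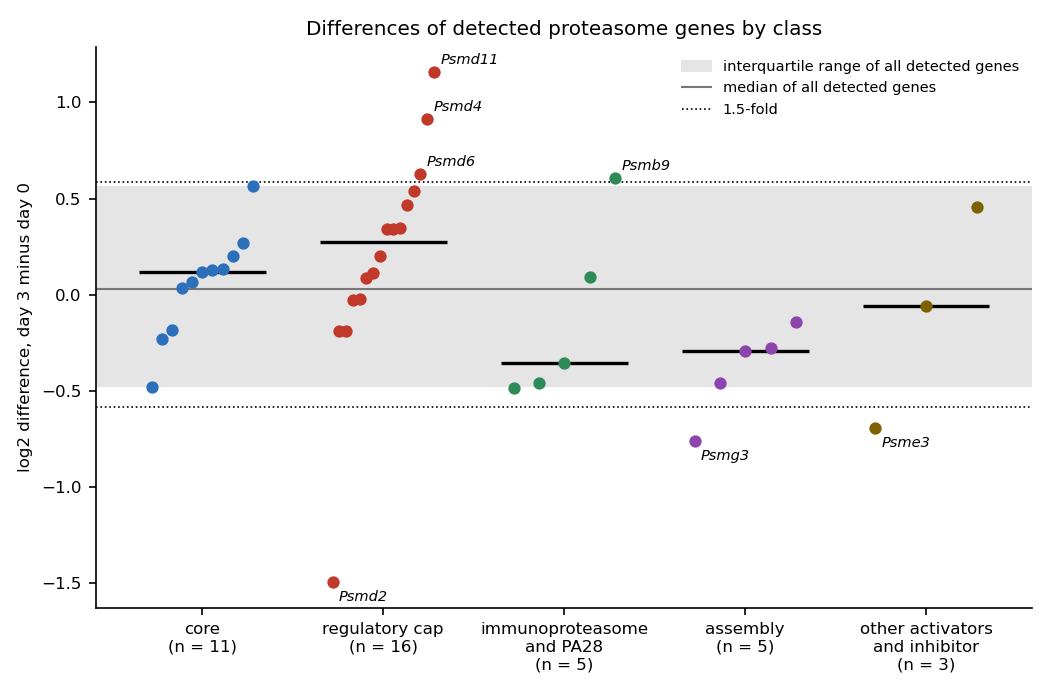
Log2 difference, day 3 minus day 0, of each detected proteasome gene (points) by class, with class medians as black bars, the interquartile range of all detected genes as a grey band, their median as a grey line and 1.5-fold limits dotted. Core genes stay inside the limits, the cap holds both the highest gene (Psmd11) and the lowest (Psmd2), and all 5 assembly genes lie below 0, where 2 stay in every scaling as read.

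Immunoproteasome genes had no common direction. Psmb9, the immune counterpart of Psmb6, read 230.5 on day 3 and 151.5 on day 0 (0.61). Psmb8, the counterpart of Psmb5, read 261 on day 3 and 244.5 on day 0 (0.09, and 0.49 by its other probe). Psmb10, the counterpart of Psmb7, was lower, with 2249 on day 3 and 2874.25 on day 0 (-0.35, and -0.78 by its other probe). Psmb9 and Psmb8 read not far above the threshold of 122 on both days.

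Each immune gene's log2 difference between the days was also set against that of its constitutive counterpart. The day 3 minus day 0 difference of Psmb9 was greater than that of Psmb6 by 0.54, with a combined repeat-spot SD of 0.55. That value was 0.32 under cyclic loess and 1.10 with no normalization. Psmb8 against Psmb5 gave -0.04, -0.13 under cyclic loess and 0.42 with no normalization, so its direction depended on the scaling. Psmb10 against Psmb7 gave 0.13, and 0.01 and 0.17 in those settings. These pair values use the probe of highest signal, and the direction of 2 pairs depended on the probe. By its other probe Psmb10 gave -0.78, below the -0.48 of Psmb7. The other probe of Psmb8 gave 0.49, above the 0.13 of Psmb5. The probes of Psmb9 and Psmb8 read far dimmer than those of Psmb6 and Psmb5, and leaving out normalization raised them more. With no normalization Psmb9 gave 1.59 and Psmb6 0.49, against 0.61 and 0.07 after quantile normalization. Psmb8 gave 0.95 and Psmb5 0.53, against 0.09 and 0.13. The part of brightness in these pair values was not tested.

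The 2 genes of the PA28 activator that interferon induces were both lower on day 3, though Psme2 turned to 0.03 with no normalization. Psme1 read 6496 on day 3 and 9088.5 on day 0 (-0.48, and -0.62 by its other probe). Psme2 read 1730.5 on day 3 and 2379 on day 0 (-0.46). Each exceeded its repeat-spot SD, 0.37 and 0.40, but not the pooled SD of 0.90 and 0.50. Over all 5 genes of the immune class the median was -0.35, which turned to 0.11 with no normalization.

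Psmb9 and Psmb8 lie on chromosome 17 beside Tap1 and Tap2, the peptide transporter genes of antigen presentation. Psmb9 and Tap1 run in opposite directions with 225 bases between their starts in RefSeq, so most of the sequence printed for Psmb9 also lies before Tap1. Tap1, given here for its place beside Psmb9, read 176.5 on day 3 and 114 on day 0, below the threshold, and was at least 1.45-fold higher on day 3. Tap2 read 1217.25 on day 3 and 1074.5 on day 0 (0.18).

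The wider list of MHC class I and interferon genes went both ways. Of 18 listed genes, 15 were on the array and 13 were detected. At their measured signals their median was -0.58. On day 3, 3 were 1.5-fold higher and 6 lower, where 24.1% and 21.0% of all detected genes were. At 2-fold, 0 were higher and 2 lower, where 12.8% and 10.3% were. With signals below the threshold raised to it, 2 were 1.5-fold higher and 5 lower, and 1 was 2-fold lower. Of all 10656 detected genes in that setting, 2307 were 1.5-fold higher and 2035 lower, and 907 were 2-fold lower. The interferon-induced gene Ifit3 was at least 2.57-fold lower, with 96 on day 3 and 313 on day 0. Erap1, which trims antigenic peptides, read 42 on day 3 and 124 on day 0 and was at least 1.02-fold lower. Stat2 was higher (0.90), and Gbp3 (-0.88), the MHC class I gene H2-T23 (-0.87) and Isg15 (-0.72) were lower. The median of this list was 0.15 in the authors' table, which lacked Ifit3, Erap1, Gbp3 and Isg15 among others, and 0.14 where both days had to exceed the median of detected probes.

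All 5 detected assembly genes were lower on day 3, with a median of -0.29, which turned to 0.12 with no normalization, still below the 0.67 of genes at large in that setting. Psmg3, which encodes a chaperone of alpha-ring assembly, read 846.5 on day 3 and 1436 on day 0 (-0.76). Psmg1 read 6921.25 on day 3 and 9528 on day 0 (-0.46), and Psmg2, its partner, read 3688.5 on day 3 and 4510.75 on day 0 (-0.29). Only Psmg3 and Psmg1 exceeded their repeat-spot SD, 0.40 and 0.37, and Psmg3 also the pooled SD of 0.50.

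The chaperones of base assembly were closer to level. Psmd9 read 1130.5 on day 3 and 1367.5 on day 0 (-0.27), but its other probe, near the threshold, gave 0.22. Psmd10, whose product is also called gankyrin, read 7862 on day 3 and 8681 on day 0 (-0.14). Psmd5 was below the threshold on both days, with 54 on day 3 and 89.5 on day 0.

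Of the remaining activators and inhibitors, Psme3 was lower and Psme4 depended on the probe. Psme3 encodes the nuclear PA28γ activator, and it read 2088 on day 3 and 3381 on day 0 (-0.70), beyond the repeat-spot SD of 0.40 and the pooled SD of 0.50. Psme4, for the activator PA200, read 6345.5 on day 3 and 4625.5 on day 0 (0.46) by its brighter probe. Its dimmer probe read 105.5 on day 3, under the threshold, and 301.5 on day 0. Psmf1, for the proteasome inhibitor PI31, was level, with 2837.5 on day 3 and 2951.75 on day 0 (-0.06).

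In all, 7 proteasome genes had more than 1 probe, and 6 of them had more than 1 detected probe. For Psmb10, Psmb8 and Psme1 the probes had the same sign. For Psmc6, Psmd9 and Psme4 they were opposite in sign, and the widest gap was that of Psme4. Probe sequences and positions were not analysed here, so which transcripts each probe reports is not known.

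**Figure D4:**
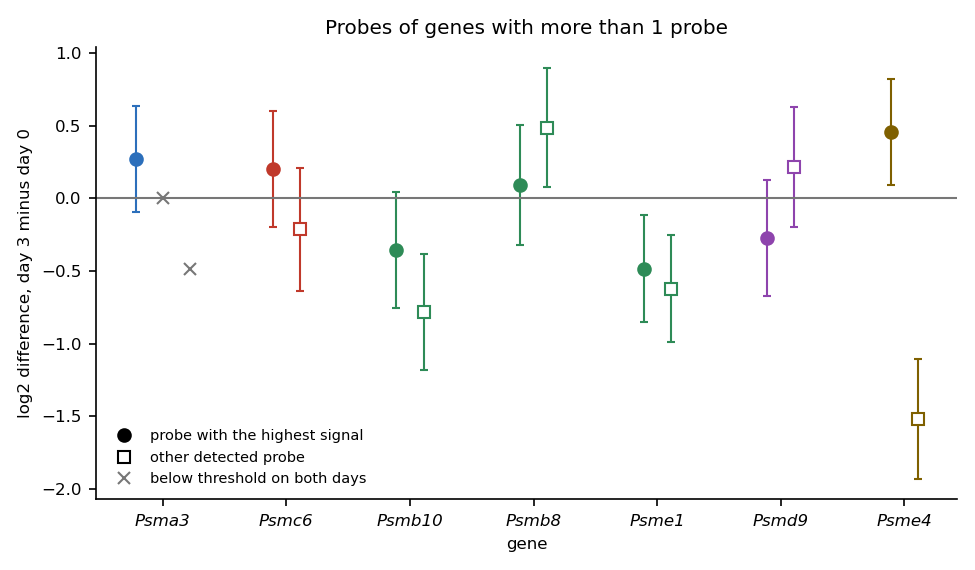
Log2 difference, day 3 minus day 0, by every probe of the 7 genes with more than 1 probe: the probe with the highest signal (filled circles), other detected probes (open squares) and probes below the threshold on both days (crosses). Bars show the repeat-spot SD of the median control feature, and the Psme4 probes are the only detected pair whose bars do not overlap.

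The 2 genes that match by name alone were read apart. Psmc3ip had 279.5 on day 3 and 829 on day 0 (-1.57), and Psme3ip1 had 5002.5 on day 3 and 5017 on day 0, with a difference of 1.29 by its dimmer probe.

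Genes that work with the proteasome were read from a list of partners. Of 35 listed partners, 25 were on the array under these symbols and all 25 were detected, with a median of 0.09. At 1.5-fold, 1 was higher, where 24.1% of all detected genes were, and 1 was lower, where 21.0% were, and 0 reached 2-fold. Under median scaling over all gene probes 0 partners were 1.5-fold higher and 12 lower, where 1471 and 4750 of all 10655 detected genes were. With no normalization 12 partners were higher and 0 lower, where 5954 and 696 of all 11043 detected genes were. Nploc4, an adaptor of the unfolding ATPase p97, read 2612.5 on day 3 and 1329.5 on day 0 (0.97). Adrm1, the ubiquitin receptor RPN13 of the base, read 325 on day 3 and 554 on day 0 (-0.77), within the pooled SD of 1.01. Nfe2l1 encodes NRF1, the transcription factor of proteasome genes. It read 14230 on day 3 and 9976.5 on day 0 (0.51), beyond its repeat-spot SD of 0.37 but not the pooled SD of 0.90.

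Smaller differences were seen for Bag6 (0.30), Pomp (0.28) and Fbxo7 (-0.27). Pomp encodes the chaperone that completes the core, and it read 18760.5 on day 3 and 15416.5 on day 0. After quantile normalization Pomp stood apart in sign from the 5 assembly genes above, but within its repeat-spot SD of 0.37. Its sign under the median scalings is not given here. Sem1, the smallest lid subunit, read 31052.5 on day 3 and 29142 on day 0 (0.09). Vcp, which encodes p97, read at saturation on each day, so its difference is unknown.

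Because the day 3 array was brighter, the sign of a small difference depended on the scaling. The median of all detected genes was 0.67 with no normalization and -0.49 under median scaling over all gene probes. The 6 scalings compared were quantile, 2 median scalings, cyclic loess, none and the authors' table, which held 38 of the 40 detected members. As read, 4 members were higher in every scaling (Psmd11, Psmd4, Psma6 and Psmb9), 6 were lower in every scaling (Psmd2, Psmg3, Psmg1, Psme3, Psme1 and Psmb7) and 30 changed sign. Psmb9 was not in the authors' table.

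Relative to the median of all detected genes, 12 members were higher in all scalings that held them, 16 were lower and 12 changed sign. The lower ones included all 5 detected assembly genes, Psme1, Psme2 and Psmb10. The higher ones included 5 lid genes, Psmd11, Psmd6, Psmd3, Psmd12 and Psmd8, and the immune genes Psmb8 and Psmb9. The lid median stayed above 0, between 0.10 and 0.38, and the assembly median below it, between -0.55 and -0.31. The immunoproteasome median lay between -0.56 and -0.36. The core median ranged from -0.15 to 0.19, the base median from -0.21 to 0.16 and the cap median from -0.072 to 0.25, so none of these had a settled sign. The median scalings and the setting with no normalization differ by 1 constant per array and count as 1 view here. The authors' values were distributed as after quantile normalization, so they and the quantile setting are close to 1 view too.

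**Figure D5:**
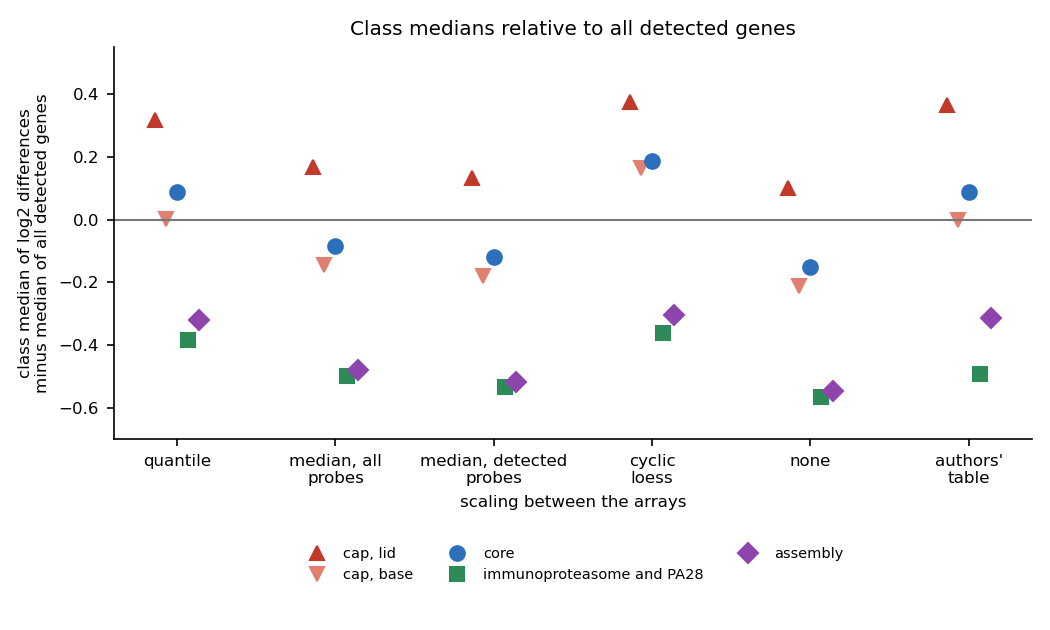
Median log2 difference of each class minus the median of all detected genes (vertical axis) under 6 ways of scaling the arrays (horizontal axis). Lid genes lie above 0 and assembly and immunoproteasome genes below 0 in all 6, while core and base genes fall on either side.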

How the data were processed

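Per the labels' protocols, RNA came from a column kit, and the array company amplified 1 µg and labelled it with Cy5. The deposited per-sample tables hold 1 linear intensity per spot, for 39200 spots. The 7402 empty spots had a median of 0 on both days, as background-subtracted values do. The sources used here name no scanner, software or background step. For the whole series the authors deposited a table of intensity values for 11482 probes, in which 99.8% of the values, once sorted, lay within 1% of each other between days, as after quantile normalization.

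Quantile normalization of the 29922 gene probes used limma 3.58.1 in R 4.3.3, followed by a floor of 10 and log2. Signals from 65000 upwards counted as saturated. Of 21020 named probes, 17558 symbols were current in a GRCm38.p6 gene table, 3410 were synonyms and 52 were kept. Each gene was read by its probe of highest mean log2 signal. A fold is a lower bound where 1 day was under the threshold of 122 or saturated. The fold limits were 1.5 and 2. With 1 sample per day no test was made, and the number of arrays limits the precision. The calculation was tested on simulated data.

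All proteasome genes were named. Of the partner and MHC lists the 6 largest differences were named, and Tap1, Tap2, Sem1 and Vcp were added after their values were seen. Members, lists and classes were chosen with earlier results of these data known. Alternatives were other scalings, an offset of 50, other detection rules, other ways of joining probes and the authors' table.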

Additional observations from a re-analysis of the deposited data

How the results depend on the processing

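No paired analysis was possible because each day had 1 array. Cyclic loess and an offset of 50 each moved all 40 detected proteasome genes by less than the repeat-spot SD. The authors' values did so too for the 38 they hold. Those values were distributed as after quantile normalization, so their closeness to the main setting is no separate check. The other settings changed counts or medians as follows. Values here are for all detected genes or for the lists named, with day 3 over day 0, and the cause of each change was not tested beyond what the setting itself does. Median scaling over all gene probes lowered the difference of every detected proteasome gene and no normalization raised it. Under median scaling over all gene probes, medians were -0.60 for proteasome genes, -0.57 for core, -0.49 for cap, -0.98 for immunoproteasome, -0.97 for assembly, -0.71 for the other activators and inhibitor, -0.32 for lid, -0.63 for base and -0.57 for partner genes. There, 0 proteasome genes were 1.5-fold higher and 21 lower, 0 were 2-fold higher and 7 lower, and Psmd6 turned to -0.043. Of all genes, 1471 were 1.5-fold higher and 4750 lower, and 829 were 2-fold higher and 2586 lower. Among partner genes, 0 were 1.5-fold higher, 12 were 1.5-fold lower and 2 were 2-fold lower, and of the MHC class I and interferon list, 1 was 1.5-fold higher and 5 were 2-fold lower.

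With no normalization, medians were 0.49 for proteasome genes, 0.11 for immunoproteasome, 0.12 for assembly, 0.38 for the other activators and inhibitor, 0.77 for lid, 0.46 for base, 0.52 for partner genes and 0.23 for the MHC class I and interferon list. There, 14 proteasome genes were 1.5-fold higher and 1 lower, and 5 were 2-fold higher and 0 lower. Of all genes, 5954 were 1.5-fold higher and 696 lower, and 3940 were 2-fold higher and 315 lower. Among partner genes, 12 were 1.5-fold higher, 0 were 1.5-fold lower and 2 were 2-fold higher, and of the MHC class I and interferon list, 5 were 1.5-fold higher, 1 was 1.5-fold lower, 3 were 2-fold higher and 0 were 2-fold lower.

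Median scaling over the probes above the threshold on each day gave 6 proteasome genes 1.5-fold lower and 2 that were 2-fold higher. It gave 2 partner genes 1.5-fold higher. In the MHC class I and interferon list it gave 3 that were 1.5-fold lower, 2 that were 2-fold higher and 1 that was 2-fold lower. Of all 10787 detected genes in that setting, 3151 were 1.5-fold higher and 2014 lower, and 1891 were 2-fold higher and 957 lower. An alternative added after seeing the data took differences relative to the median of all detected genes. Median scaling over all gene probes then gave 6 proteasome genes 1.5-fold lower and 0 that were 2-fold higher. No normalization gave 7 and 0, and cyclic loess gave 2 that were 2-fold higher. Counts over all detected genes are not given for these relative settings, so these member counts have no background to be read against.

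Without a detection filter, 3994 genes were 1.5-fold higher and 3465 lower, and 2237 were 2-fold higher and 1793 lower. With both days above the median of detected probes, 1 proteasome gene was 1.5-fold lower and 0 were 2-fold lower. Of all genes in that setting, 888 were 1.5-fold higher and 868 lower, and 349 were 2-fold higher and 331 lower. Of partner genes 0 were 1.5-fold lower, and of the MHC class I and interferon list, with a median of 0.14, 1 was 1.5-fold higher, 1 was 1.5-fold lower and 0 were 2-fold lower. The mean of all probes moved the median of the other activators and inhibitor to -0.53. It gave 2 partner genes 1.5-fold lower, where 2341 of all 10206 detected genes were. Every probe on its own gave 6 proteasome probes 1.5-fold lower and 2 that were 2-fold lower, and 2 partner probes 1.5-fold lower. Of all 12984 detected probes, 3189 were 1.5-fold lower and 1708 were 2-fold lower. By the authors' values, 814 of 8211 genes were 2-fold higher and 695 lower, and 1583 were 1.5-fold lower. The MHC class I and interferon list had a median of 0.15 there, and 2 of its genes were 1.5-fold lower, 1 was 2-fold higher and 0 were 2-fold lower. In that list, the number 2-fold lower was 1 with an offset of 50, with sub-threshold signals raised to 122 or with the mean of all probes. The number was 0 where detection was required on both days. Of all genes, 890 of 10657 were 2-fold lower with the offset and 907 of 10656 with signals raised to 122. With the mean of all probes 1125 of 10206 were, and 795 of 9434 where detection was required on both days.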
